A study of Mus musculus with 4 samples.

Results

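The genes described here are 10 members of the integrated stress response, the program built around the transcription factors ATF4 and CHOP. They were taken by symbol from the gene tables: Atf4, Ddit3 (which encodes CHOP), Atf3, Atf5, Trib3, Chac1, Asns, Ppp1r15a, Nupr1 and Eif2ak3. All 10 were found, each on 1 line, among 22552 gene symbols, and 9 of the 10 reached the mean of 1 FPKM required for testing, as did 11924 symbols in all. FPKM counts fragments per unit of transcript length and of library size, so levels of different genes can be compared.

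The cells were spermatogonial stem cells of the mouse, germ cells of the testis that renew themselves. They came from testes of male DBA/C57 F1 mice aged 5 to 7 days and carried an inducible knockout of the microRNA miR-202. Libraries with doxycycline (10 µg/ml for 2 days, the drug that induces the knockout) were compared with untreated libraries, 2 per group. The design names 2 single-cell clones, iKO-SC-1 and iKO-SC-2, used in both conditions. Cells of both groups were plated on laminin overnight beforehand, and the genotype label reads wild type in both groups. No library of doxycycline-treated cells without the inducible knockout was among the 4, so an effect of the drug and an effect of losing miR-202 cannot be told apart. Whether the replicates are separate cultures beyond the 2 clones is not stated, and the p-values cover only the spread among these 4 libraries.

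In this pathway, kinases that sense stress phosphorylate the initiation factor eIF2, which slows most protein synthesis while the Atf4 messenger is translated more. ATF4 is therefore controlled largely at the level of translation, and the transcripts of its targets are the usual RNA readout of its activity. ATF4 switches on genes of amino acid supply and, when stress persists, Ddit3, whose product CHOP takes part in cell death. GADD34, the product of Ppp1r15a, brings a phosphatase back to eIF2 and closes the loop.

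The response element through which ATF4 and its C/EBP partners bind DNA was searched for in the promoters, to show which members carry it. RefSeq promoters (GRCm38.p6, 250 bases before to 50 after the start) were found for all 10 members, with 2 for Atf5. The motif TGATGNAA, on either strand, lay in 5 of the 11 member promoters, those of 5 different genes. It lay in 3.97% of all 32851 promoters of this length. The 30 bases around each match are given below on the strand of the gene, 5′ to 3′, with the match in capitals.
Atf3: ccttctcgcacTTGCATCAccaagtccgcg
Chac1: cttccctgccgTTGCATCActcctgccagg
Trib3: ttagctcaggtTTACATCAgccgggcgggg
Asns: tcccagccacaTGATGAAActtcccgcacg
Nupr1: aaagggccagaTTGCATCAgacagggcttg
The match of Asns read on the gene's own strand and the other 4 on the opposite strand. Matches began 110 bases before the start in Atf3 and in Nupr1, farther upstream in Chac1, 23 before it in Asns and 14 after it in Trib3. The palindromic cyclic AMP element TGACGTCA, which shares no match with the first motif here, was found in 1 member, Ppp1r15a, 12 bases before the start, and in 1.79% of all promoters.
Ppp1r15a: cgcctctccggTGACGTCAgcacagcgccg
A match of letters does not show binding, and the promoters of Atf4, Ddit3, Atf5 and Eif2ak3 held neither motif in these windows. The stretches lie at chr1:191183425-191183454 (Atf3), chr2:119351038-119351067 (Chac1), chr2:152344028-152344057 (Trib3), chr6:7693214-7693243 (Asns), chr7:126625562-126625591 (Nupr1) and chr7:45526262-45526291 (Ppp1r15a). The gene is on the plus strand for Chac1 and on the minus strand for the other 5.

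The members were also searched for sites of the deleted microRNA. The mature arms of miR-202, from RefSeq (GRCm38.p6, chromosome 7, minus strand), are given with the seed, bases 2 to 8, in capitals.
mmu-miR-202-5p: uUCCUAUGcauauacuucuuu
mmu-miR-202-3p: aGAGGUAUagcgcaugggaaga
Matches to bases 2 to 8, or to bases 2 to 7 followed by A, were counted in the longest annotated 3′ UTR of each gene in GENCODE M21. None of the 10 members had a match to either arm. Among 10520 tested genes with a 3′ UTR, 15.8% had a match to the 5p arm and 13.9% to the 3p arm. The 3′ UTRs of the members ran from 80 nt in Ppp1r15a and 84 nt in Atf4 to 1189 nt in Atf3, so several offered little sequence to match. Mir202 itself was listed at 0 FPKM in all 4 libraries, as were all 594 microRNA symbols searched, which leaves the knockout unchecked by these values.

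With doxycycline, 9 of the 10 members had values that overlapped those of the untreated libraries, and Ddit3, the gene of CHOP, was the exception at 1.26 times the untreated mean. Groups that did not overlap, in either direction, were found for 48.4% of all tested genes. Of the 9 tested members, none passed limma's test at an adjusted p under 0.05, where 0.277% of all tested genes passed. At an unadjusted p under 0.05 there was 1 member, Ddit3, which is 11.1% of the 9 tested, beside 15.1% of all tested genes. With the replicate number as a covariate (a block, taking libraries of the same number as the same clone), Ddit3 passed and no other member did, against 3.70% of all tested genes in either direction and 2.73% in the direction of Ddit3. The median log2 change of the tested members was -0.03, beside -0.002 for all tested genes. It was -0.08 in the pair of libraries numbered 1 and 0.02 in the pair numbered 2. In bulk RNA fewer cells of a type and less RNA per cell cannot be told apart. Log2 changes here are differences of mean log2(FPKM + 1), doxycycline minus untreated, which understate the changes of low genes.

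**Figure D1:**
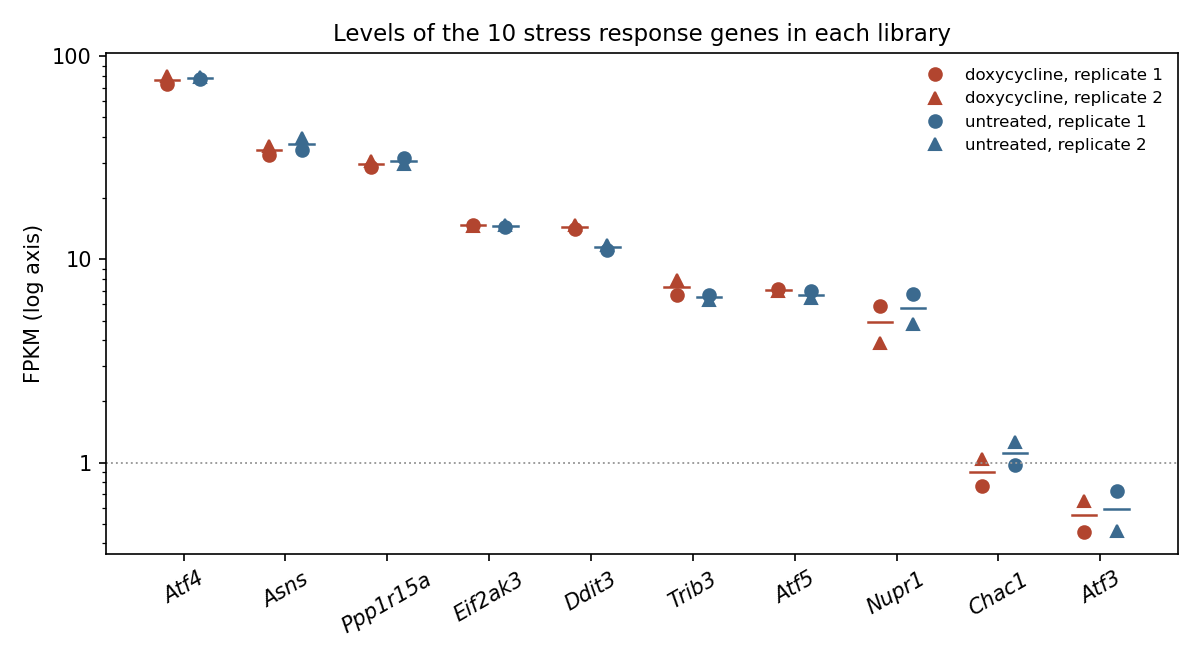
FPKM (log axis) of each member in each library, ordered by mean level, with doxycycline libraries in red on the left, untreated libraries in blue on the right, circles for replicate 1, triangles for replicate 2 and bars for group means (n = 2 each). The dotted line marks 1 FPKM. Ddit3 is the member whose groups do not overlap, at 14.0 and 14.7 FPKM with doxycycline against 11.2 and 11.7 FPKM untreated.

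The members spanned a wide range of levels. The plot of FPKM by library shows Atf4 at the top, with a mean over the 4 libraries of 77.4 ± 3.12 FPKM (SD, n = 4), above 96.9% of all symbols. Asns followed at 35.8 ± 3.05 FPKM, Ppp1r15a at 30.01 ± 1.27, Eif2ak3 at 14.7 ± 0.150 and Ddit3 at 12.9 ± 1.73 (SD, n = 4 each). These 5 highest members hold both ends of the pathway, its central factor and a metabolic target as well as a kinase and a phosphatase subunit. Trib3 and Atf5 stood at 6.89 ± 0.690 and 6.87 ± 0.294 FPKM, and Nupr1 at 5.33 ± 1.25 FPKM. Chac1, at 1.01 ± 0.206 FPKM, and Atf3, at 0.572 ± 0.136 FPKM, were the lowest. Neighbours in this order whose ranges over the libraries overlapped were Eif2ak3 and Ddit3, Trib3 and Atf5, and Atf5 and Nupr1. Every other neighbouring pair was separated in all 4 libraries.

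Eif2ak3 encodes PERK, the eIF2 kinase of the endoplasmic reticulum, and was the steadiest member. It had 14.8 and 14.7 FPKM with doxycycline, against 14.4 and 14.8 FPKM in untreated libraries (chromosome 6, 70794520 to 70855234, mm9 as deposited). The groups overlapped. Its log2 change was 0.01, with a 95% interval from -0.11 to 0.13 (limma adjusted p = 0.937). Over all 4 libraries its coefficient of variation was 1.02%, the smallest of the 10 members.

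Atf4, the transcription factor at the centre of the pathway, had 73.0 and 80.2 FPKM with doxycycline, against 77.3 and 79.0 FPKM in untreated libraries (chromosome 15, 80085613 to 80087971, mm9). The doxycycline libraries held both the lowest and the highest value, so the groups overlapped. The log2 change was -0.03, with an interval from -0.16 to 0.10 (limma adjusted p = 0.830). On the FPKM + 1 scale these bounds correspond to 0.896-fold and 1.07-fold. The level of ATF4 protein was not measured, and the messenger level does not bear on its translation.

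Ddit3 encodes CHOP, the C/EBP family factor that ATF4 induces under lasting stress. It had 14.0 and 14.7 FPKM with doxycycline, against 11.2 and 11.7 FPKM in untreated libraries (chromosome 10, 126727848 to 126733344, mm9). Both doxycycline libraries lay above both untreated ones. The group means were 14.4 ± 0.486 FPKM with doxycycline and 11.4 ± 0.378 FPKM untreated (SD, n = 2 each), a ratio of 1.26, and the ratio was 1.26 in each pair of same-numbered libraries. The log2 change was 0.31 ± 0.06 (SE), with an interval from 0.17 to 0.44. It missed the threshold over all genes (limma adjusted p = 0.111) and passed with the block (adjusted p = 0.0243). Of the 11924 tested genes, 97.2% had a lower change, and by size in either direction Ddit3 ranked 458.

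The deposited confidence bounds of doxycycline replicate 1, which describe that library alone, put Ddit3 between 12.0 and 16.0 FPKM. Both untreated values lay below this range, but they have an uncertainty of their own that was not compared. A separation beyond measurement error is therefore not shown. The locus of Ddit3 shares 68 bases with that of Mars, the methionyl-tRNA synthetase gene, and strand use in the counting is not stated. Mars had 82.6 and 78.6 FPKM with doxycycline, against 82.8 and 84.8 FPKM in untreated libraries, with a log2 change of -0.06 (limma adjusted p = 0.571). Its small change was thus opposite in sign to that of Ddit3. Its part in the value of Ddit3 was not tested.

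**Figure D2:**
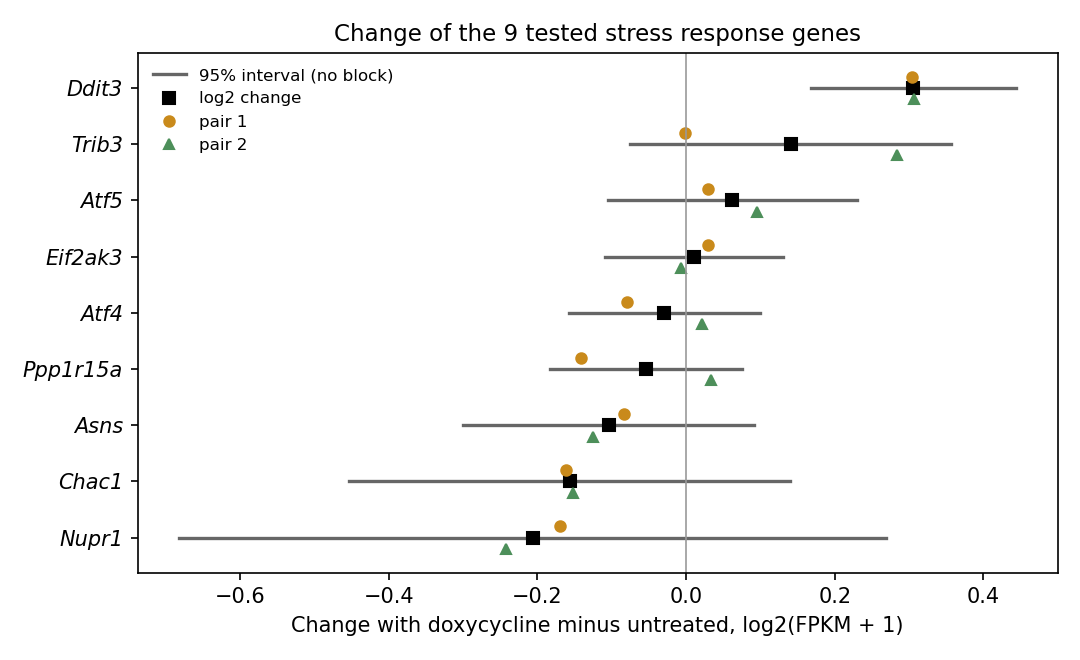
Change of each tested member, doxycycline minus untreated, in log2(FPKM + 1), with squares for the log2 change, lines for the 95% interval of limma's fit without the block, and circles and triangles for the pairs of libraries numbered 1 and 2. Ddit3 is the member whose interval, 0.17 to 0.44, lies away from 0, and its pairs coincide at 0.30 and 0.31.

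Atf5 and Atf3, related bZIP factors, had overlapping groups. Atf5, which like Atf4 is translated more when eIF2 is phosphorylated, had 7.13 and 6.96 FPKM with doxycycline, against 6.96 and 6.45 FPKM in untreated libraries (chromosome 7, 52067625 to 52072028, mm9). The groups overlapped narrowly, and the log2 change was 0.06, with an interval from -0.10 to 0.23 (limma adjusted p = 0.707). Its locus shares 239 bases with Nup62, a nuclear pore gene at 64.2 and 65.0 FPKM with doxycycline and 70.1 and 68.5 FPKM untreated, whose log2 change was -0.10. Whether reads of Nup62 enter the value of Atf5 was not tested.

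Atf3, an immediate stress factor induced by ATF4 and by other signals, had 0.457 and 0.646 FPKM with doxycycline, against 0.725 and 0.458 FPKM in untreated libraries (chromosome 1, 192994175 to 193007212, mm9). It was lower with the drug in the pair numbered 1 and higher in the pair numbered 2, with a mean log2 difference of -0.03. Its mean lay under 1 FPKM, and it was left out of the main test. The deposited bounds of doxycycline replicate 1 were 47.1% of the value to either side, so a modest change of this gene was not detectable at this depth.

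Among the targets, Asns, the asparagine synthetase gene whose induction by ATF4 marks amino acid shortage, had 32.5 and 36.3 FPKM with doxycycline, against 34.5 and 39.7 FPKM in untreated libraries (chromosome 6, 7625170 to 7643182, mm9). It was lower with doxycycline in both pairs, but the groups overlapped. The log2 change was -0.10, with an interval from -0.30 to 0.09 (limma adjusted p = 0.579). With the block the interval narrowed to between -0.20 and -0.01, and the adjusted p of 0.185 still missed the threshold.

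Trib3 encodes a pseudokinase induced by ATF4 and CHOP that in turn restrains ATF4. It had 6.69 and 7.89 FPKM with doxycycline, against 6.70 and 6.30 FPKM in untreated libraries (chromosome 2, 152163160 to 152169796, mm9). Doxycycline replicate 2 stood above the other 3 libraries, which lay together. The log2 change was 0.14, made of -0.002 in the pair numbered 1 and 0.28 in the pair numbered 2, and its interval ran from -0.08 to 0.36 (limma adjusted p = 0.496).

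Chac1, which encodes an enzyme that degrades glutathione, had 0.764 and 1.04 FPKM with doxycycline, against 0.973 and 1.26 FPKM in untreated libraries (chromosome 2, 119176977 to 119180062, mm9). It was lower with the drug in both pairs, at -0.16 and -0.15 on the log2 scale, with overlapping groups. The log2 change was -0.16, with a wide interval from -0.45 to 0.14 (limma adjusted p = 0.582). At this level the deposited bounds of doxycycline replicate 1 were 41.7% of the value to either side.

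Ppp1r15a, the gene of the GADD34 phosphatase subunit that ends the response, had 28.5 and 30.4 FPKM with doxycycline, against 31.5 and 29.6 FPKM in untreated libraries (chromosome 7, 52778287 to 52781638, mm9). The pairs went in opposite directions, at -0.14 and 0.03, and the log2 change was -0.05 with an interval from -0.18 to 0.08 (limma adjusted p = 0.670).

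Nupr1, a small stress-induced chromatin protein, had 5.89 and 3.89 FPKM with doxycycline, against 6.75 and 4.79 FPKM in untreated libraries (chromosome 7, 133766759 to 133768984, mm9). The libraries numbered 2 were below those numbered 1 in both groups. The log2 change was -0.21, at -0.17 and -0.24 in the pairs, and the interval ran from -0.68 to 0.27 (limma adjusted p = 0.655). With the block, which takes out the difference between the numbers, the interval narrowed to between -0.37 and -0.05, and the adjusted p of 0.135 still missed the threshold.

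Across the 10 members, 2 were higher in both pairs (Ddit3 and Atf5), 3 were lower in both (Asns, Chac1 and Nupr1), and 5 went in opposite directions. Of all tested genes, 32.8% were higher in both pairs, 34.0% lower in both and 33.2% opposite. The 5 members with a TGATGNAA match were Atf3, which was not tested, and 4 with log2 changes of 0.14 for Trib3, -0.10 for Asns, -0.16 for Chac1 and -0.21 for Nupr1, which are of both signs, and none of the 4 passed the test in either fit. Of 8516 tested genes with a RefSeq promoter, 211 held the motif, and their median log2 change was 0.001, beside -0.003 for all 8516. None of the 211 passed limma's test without the block, 36 had an unadjusted p under 0.05 (17.1%, against 15.1% of the 8516), and 12 passed with the block (5.69%, against 3.63%).

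**Figure D3:**
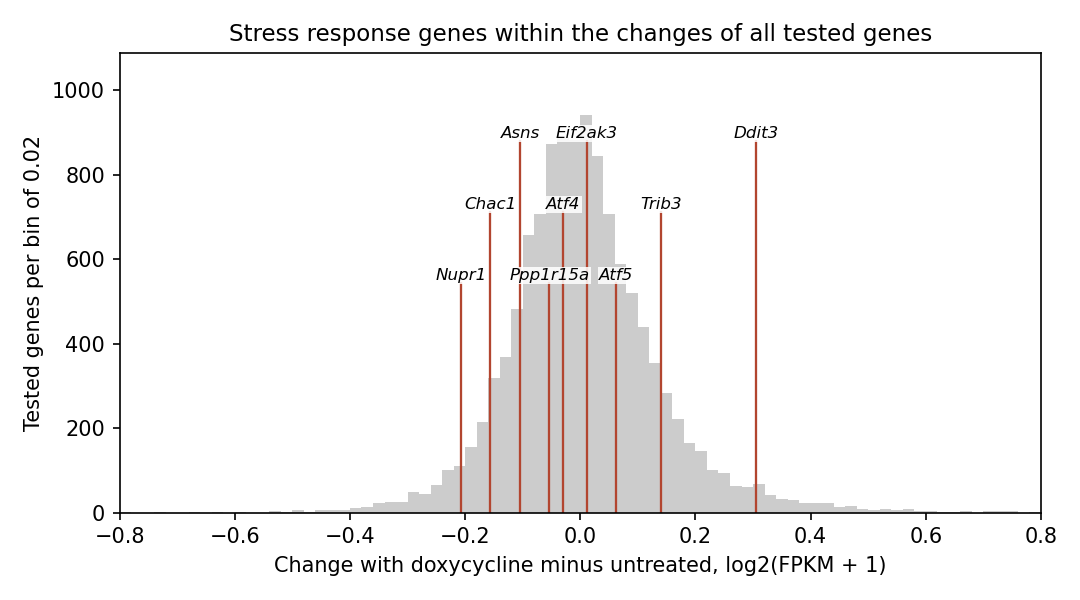
Number of tested genes per bin of 0.02 in log2 change, doxycycline minus untreated (grey bars), with the 9 tested members as red lines whose heights carry no value. The 29 genes beyond 0.8 to either side are not drawn. Ddit3, at 0.31, lies toward the upper edge of the distribution, and the other 8 lie between -0.21 and 0.14.

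Genes whose values over the 4 libraries were most like those of Ddit3, by distance between log2(FPKM + 1) values centred on each gene's mean, were Mpp1, which encodes a membrane-associated scaffold, Tpx2, a spindle assembly factor, and Fau, a ribosomal protein fusion gene. Mpp1 had 3.03 and 3.22 FPKM with doxycycline, against 2.30 and 2.44 FPKM untreated, and its distance was 0.0133. Tpx2 and Fau lay at 0.0178 and 0.0209. A distance under 0.1 held for 160 genes among the 11924 tested, so the 3 named are not alone in this likeness. For Atf4 the nearest were Hgsnat, Phactr4 and Palld, at distances from 0.00481 to 0.00811, and 2185 genes lay within 0.1.

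Beyond the 10 members, 154 other tested genes of the pathway were taken from 10 lists, and most of them showed no called change. Of the 154, limma called 3 higher and 1 lower, 28 had an unadjusted p under 0.05, and with the block 7 were higher and 2 lower. The called genes are 2.60% and, with the block, 5.84% of the 154, beside 0.277% and 3.70% of all tested genes. The 28 genes at an unadjusted p are 18.2% of the 154, and the counts at an unadjusted p in single lists are to be read against the 15.1% of all tested genes. All 4 genes called without the block belong to the list of death and redox genes linked to CHOP, and several of their changes were already known when the list was made. The median log2 change of the 154 was 0.01. In 6 of the 10 lists no gene was called in either fit.

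The machinery around eIF2 showed no called change. Of 21 tested genes for kinases, phosphatase subunits, eIF2 and its exchange factor eIF2B, none was called in either fit, 4 had an unadjusted p under 0.05, and the median log2 change was 0.00002. The largest differences were those of Eif2ak2, the kinase PKR that senses double-stranded RNA, at 1.03 and 0.977 FPKM with doxycycline and 1.28 and 1.30 FPKM untreated (log2 change -0.19, limma adjusted p = 0.378), and of Dnajc3, an inhibitor of PERK, at 12.1 and 12.2 FPKM with doxycycline and 11.1 and 10.3 FPKM untreated (0.17, adjusted p = 0.267).

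Of 28 tested bZIP partners and other regulators, none was called without the block, 4 had an unadjusted p under 0.05, and the median was -0.01. With the block Jund, an AP-1 subunit, fell to 48.1 and 43.1 FPKM with doxycycline, against 66.1 and 54.5 FPKM untreated (log2 change -0.39, adjusted p = 0.00553, against 0.184 without it).

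Amino acid supply is the best known output of ATF4. Of 21 listed genes of amino acid and one-carbon synthesis, 17 were tested. The rest averaged under 1 FPKM, so the counts do not cover them. None of the 17 was called in either fit or had an unadjusted p under 0.05, and their median was -0.01. Gpt2, the mitochondrial alanine aminotransferase, was at -0.16 (limma adjusted p = 0.342) and Got1, the cytosolic aspartate aminotransferase, at 0.11 (0.504). Among the 13 transporters tested, of 15 listed, the median was -0.002, and none was called without the block. With it Slc38a1, a sodium-coupled carrier of glutamine and other neutral amino acids, rose to 16.3 and 16.7 FPKM with doxycycline, against 13.3 and 13.02 FPKM untreated (log2 change 0.31, adjusted p = 0.0230, against 0.0818 without the block). None of 13 tested genes of the tRNA synthetase list was called in either fit, with 2 at an unadjusted p under 0.05, a median of 0.01, and Cars and Wars, for cysteine and tryptophan, at 0.13 and -0.11.

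The other arms of the unfolded protein response were examined because PERK works beside them. None of 16 tested genes of the IRE1 and degradation arm was called in either fit, 2 had an unadjusted p under 0.05, and the median was -0.03. Herpud1, a scaffold of the degradation complex, was at -0.16 and Sec61b, a subunit of the translocation channel, at 0.16 (limma adjusted p = 0.306 and 0.291). Of 16 endoplasmic reticulum chaperones and folding enzymes, with a median of 0.02, none was called without the block and 4 had an unadjusted p under 0.05. Canx, the lectin chaperone calnexin, rose with the block to 77.7 and 80.7 FPKM with doxycycline, against 66.3 and 72.2 FPKM untreated (log2 change 0.19, adjusted p = 0.0428, against 0.209 without it).

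**Figure D4:**
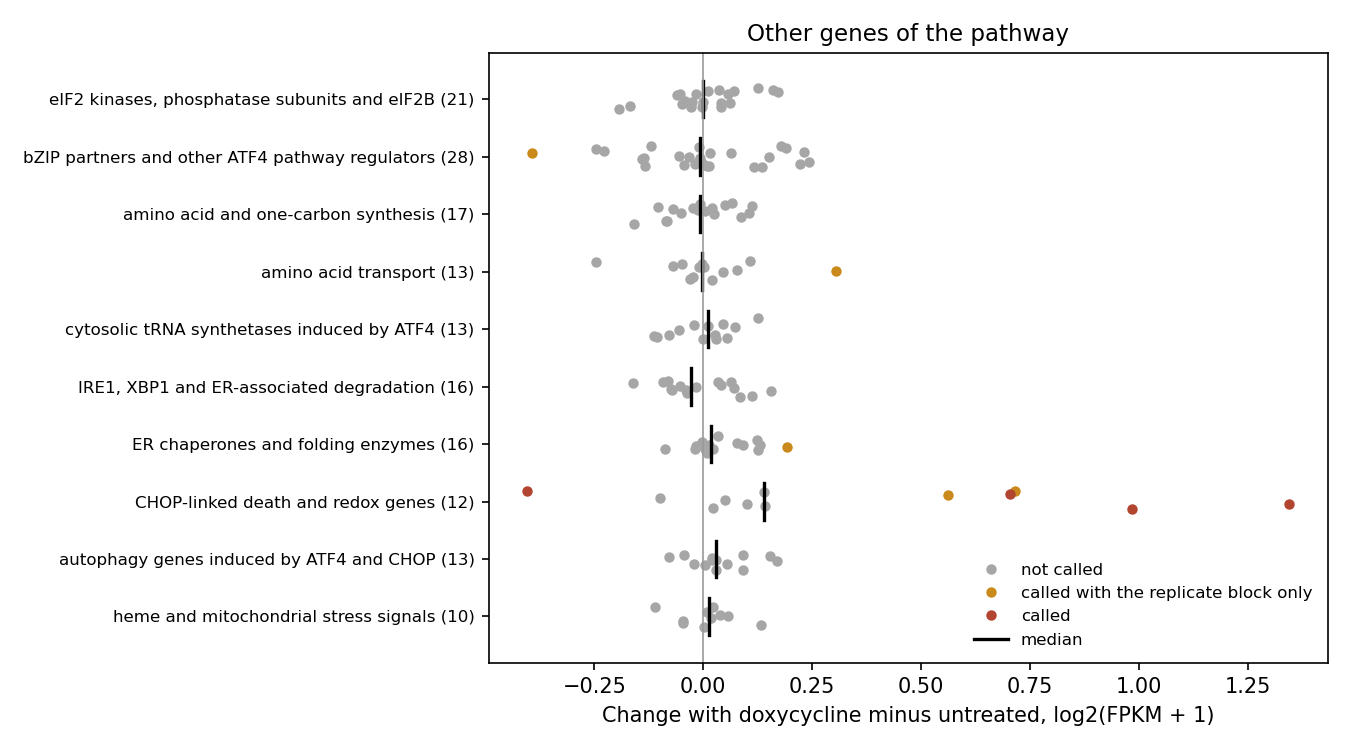
Log2 change, doxycycline minus untreated, of every tested gene in the 10 pathway lists (number tested in brackets, members included), with black bars for list medians, red for genes called by limma, orange for genes called with the replicate block only and grey for the rest. List medians lie between -0.03 and 0.03 except for the list linked to CHOP, at 0.14, which also holds the 4 red points. Several changes of that list were already known when it was made.

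The list of genes linked to CHOP in death and redox control held all 4 pathway genes called without the block. Of its 12 tested, Trib3 among them, 3 rose and 1 fell without the block, and with it 5 rose and 1 fell. Ddit4, an inhibitor of mTORC1, had 48.0 and 63.4 FPKM with doxycycline, against 19.8 and 22.5 FPKM untreated (log2 change 1.35, limma adjusted p = 0.0291), and Sesn2, a sestrin that also restrains mTORC1, had 34.4 and 38.6 FPKM, against 21.0 and 23.0 FPKM untreated (0.70, adjusted p = 0.0291). Bbc3, which encodes the cell death protein PUMA, had 8.55 and 9.65 FPKM with doxycycline, against 4.10 and 4.09 FPKM untreated (0.98, adjusted p = 0.0288). Pmaip1, for the cell death protein NOXA, had 15.0 and 14.0 FPKM with doxycycline, against 9.63 and 7.35 FPKM untreated, a log2 change of 0.72 (adjusted p = 0.0767, and 0.00372 once blocked). Without untreated replicate 1, or without untreated replicate 2, no pathway gene passed. Without doxycycline replicate 2 only Ddit4 did, and without doxycycline replicate 1 Ddit4, Sesn2, Bbc3 and Tnfrsf10b did, so Txnip passed in none of these 4 fits. The remaining called genes, chosen for naming after their values were seen, were the death receptor gene Tnfrsf10b, at 0.56 (0.00157 with the block, against 0.0697), and Txnip, the thioredoxin inhibitor, which fell by 0.40 (0.0291 without the block). Ddit4, Sesn2, Bbc3, Pmaip1 and Tnfrsf10b are also known as targets of p53, as is Gadd45a, which was not called. A part of p53 in these changes was not tested. The 6 others tested, none called in either fit, had log2 changes of 0.14 for Trib3, 0.14 for Gadd45a, 0.10 for Car6, 0.05 for Bcl2l11, 0.02 for Ero1l and -0.10 for Bad, and all but Trib3 were likewise named after their values were seen.

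Among autophagy genes, none of 13 tested was called in either fit, 3 had an unadjusted p under 0.05, and the median was 0.03. Gabarap, of the ATG8 family, was at 0.17 and came close with the block (adjusted p = 0.0501, against 0.230 without it), and Atg3, which helps conjugate that family to lipid, was at 0.15 (limma adjusted p = 0.292). None of 10 tested genes of heme and mitochondrial stress was called in either fit, with 1 at an unadjusted p under 0.05 and a median of 0.01. Oma1, the mitochondrial protease that relays stress to eIF2 kinases, was at 0.13 and Clpp, a matrix protease, at -0.11 (limma adjusted p = 0.513 and 0.299). The secreted stress markers Gdf15 and Fgf21 lay under 1 FPKM in every library, at no more than 0.390 and 0.0631 FPKM with doxycycline and 0.236 and 0.122 FPKM untreated.

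The cells carried the transcripts of undifferentiated spermatogonia. The list for that state has 12 genes, of which Dazl and Ddx4 are expressed by germ cells more broadly. The 12 together summed to 1090 and 1056 FPKM with doxycycline and to 1076 and 1086 FPKM untreated. None was called in either fit, with 1 at an unadjusted p under 0.05. Dazl, a germ cell RNA-binding protein gene, was the most abundant at 300 and 284 FPKM with doxycycline and 287 and 293 FPKM untreated. The 8 fibroblast feeder markers, led by Fn1, summed to 188 and 179 FPKM with doxycycline and to 189 and 168 FPKM untreated. Of 7 tested, none was called without the block and 1 had an unadjusted p under 0.05. With the block Thy1, which spermatogonia also carry and which was named after its values were seen, passed at 12.4 and 11.9 FPKM with doxycycline against 9.89 and 9.55 FPKM untreated (log2 change 0.30, adjusted p = 0.0312, against 0.123). Sertoli markers, 7 measured and led by Sox9, summed to 8.58 and 9.80 FPKM with doxycycline and to 7.54 and 7.76 FPKM untreated. This sum did not overlap between the groups, and single genes without overlap were 48.4% of all tested. Most of it came from the 3 tested markers, Sox9, Clu and Wt1, while the others averaged under 1 FPKM. Amh, Gata4, Cldn11 and Inha reached at most 0.124, 0.139, 0.216 and 0.515 FPKM in any library. None of the 3 tested markers was called in either fit, with 1 at an unadjusted p under 0.05. Macrophage and blood markers, led by Cd68, lay between 4.65 and 7.74 FPKM in sum, most of it from Cd68 and Hba-a1. Ptprc, Lyz2, Csf1r and Adgre1 reached at most 0.135, 0.359, 0.0182 and 0.0146 FPKM in any library, and Hbb-b1 was at 0 in all. Leydig and peritubular markers, led by Myh11, lay between 1.27 and 1.62 FPKM in sum, with 3 of 7 at 0 in every library. What part such cells have in the value of Ddit3 was not tested. Total FPKM per library was 313981 and 320243 in doxycycline libraries, against 309153 and 314507 in untreated ones.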

How the data were processed

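RNA-seq libraries of 4 samples were grouped by the treatment in their titles. Each library has its own deposited table of FPKM by gene, whose columns, per the file headers, are those of Cufflinks. TopHat2 2.0.6, Cufflinks 2.0.2, Cuffdiff and mm9 are named, without role or order, in the submitters' processing notes. The annotation and the strand setting are not stated. FPKM was summed per symbol (259 of 22552 symbols had several lines). Loci and confidence bounds come from the table of doxycycline replicate 1 and are printed as deposited. GRCm38 references served for sequences only.

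Testing was restricted to genes averaging 1 FPKM or more. The test was limma's (version 3.58.1, in R 4.3.3), applied to log2(FPKM + 1) with a variance trend, two-sided, with Benjamini-Hochberg adjustment over all 11924 genes and a threshold of 0.05. The code of the fit without the block was tested on simulated data, with planted changes larger than those of the members. The fit with the block was not part of that test. Residual degrees of freedom were 2, and 1 with the replicate block, to which moderation added 4.23 and 6.21. The design text names 2 clones per condition, so a shared number was read as a shared clone, although no title says so. Deviations of same-numbered libraries correlated at 0.215 across genes. Read counts are unknown. Values under 0.1 FPKM fell on ratios of whole numbers up to 6, within 1%, for 74.2% to 76.8% of genes, and gave depths of 1.21 (doxycycline replicate 2), 1.33 (untreated replicate 1) and 1.54 (untreated replicate 2) relative to doxycycline replicate 1, so the doxycycline library was the shallower of each pair. Correlations between libraries ran from 0.990 to 0.996.

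Members and lists were chosen with earlier results of these data known. Named genes are the members, list genes called in either fit (the 4 largest) or else the 2 largest changes of a list, Sesn2 and Ddit4, the highest marker per cell type list, and the 3 genes nearest to Ddit3 and Atf4. Tnfrsf10b, Txnip, Gadd45a, Car6, Bcl2l11, Ero1l, Bad, Gdf15 and Fgf21, and genes whose loci overlap members, were named outside this rule. So were Thy1 and every other cell type marker named beside the highest of its list. Of the listed symbols Rhox5 was not found, and Dele1 and Adgre1 were read under older symbols. Analyses used Python 3.11.15.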

Additional observations from a re-analysis of the deposited data

How the results depend on the processing

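Over 13 alternatives, 4 of which left out 1 library each, the log2 change of Ddit3 ran from 0.27 to 0.34. Its groups did not overlap, so its sign could not turn when a library was left out. In alternatives with all 4 libraries limma's adjusted p ran from 0.0243 to 0.310. Members called numbered 0 in every alternative except the replicate block, with 1. Of 116 member values under alternatives, 110 kept direction and side of the threshold (Atf3 among them, at -0.03 without a filter), 1 passed it (Ddit3 with the block), and 5 changed sign, none of them past the threshold. Those were Atf4 (-0.0959 to 0.0368) and Nupr1 (-0.453 to 0.0403) with a library left out, and Eif2ak3, at -0.0117 with libraries scaled to equal totals and from -0.00387 to 0.0258 with a library left out. The block, the filters on level, the variance settings and the choice of line could not move a member's log2 change. Direction was therefore fixed in advance in those alternatives. Chac1 gave no value without untreated replicate 2 or at a minimum of 5 FPKM. Genes called overall numbered 33, against 441 with the block, 1 without a filter on low values, 88 at 5 FPKM, 52 with equal totals, 2 without the variance trend, and 2 to 60 with a library left out. For the 154 pathway genes the count was 4, against 9 with the block, 0 without a filter, 0 without the trend, and from 0 to 4 with a library left out (0 with either untreated library left out). Ddit4 passed with either doxycycline library left out, Sesn2 and Bbc3 only without doxycycline replicate 1, and Txnip in none of these 4 fits. The cause was not tested. Values under 1 FPKM limit what can be said of Atf3 and Chac1.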
